A study of Homo sapiens with 16 samples.

Results

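The intervals described here are peaks of 2 proteins, RNA polymerase II (Pol II) and the topoisomerase TOP2A, that fell in 5 windows of human chromosome 19 known for clustered KRAB zinc finger genes. A peak is an interval called as bound after chromatin immunoprecipitation and sequencing (ChIP-seq). The windows, in hg19, were 19.7 to 24.3 Mb (cluster 1, on the short arm beside the centromere), 37.0 to 38.3 Mb (cluster 2), 44.3 to 45.0 Mb (cluster 3), 52.3 to 53.9 Mb (cluster 4) and 57.0 to 59.1 Mb (cluster 5, at the end of the long arm). They span 10.3 Mb. Any peak touching a window was a member, which gave 1761 of the 257557 peaks of the series: 596 of 87911 in the control Pol II list, 564 of 85990 after 30 min of merbarone, 598 of 81816 after 1 h, and 3 of 1840 in the TOP2A list. The rest of chromosome 19, with 14478 peaks, was the comparison.

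All samples were hTERT RPE-1, a wild-type human retinal pigment epithelial line immortalised with telomerase, kept for 48 h in medium with 0.1% serum. Pol II was precipitated through its largest subunit RPB1. The control list stands for 6 libraries, 3 from cells given vehicle (DMSO) for 30 min and 3 from untreated cells. Merbarone, an inhibitor of the catalytic cycle of topoisomerase II, was used at 200 uM for 30 min (3 libraries) or 1 h (2 libraries), and TOP2A was mapped in untreated cells (2 libraries). No vehicle library matches the 1 h time.

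KRAB zinc finger proteins bind DNA through tandem zinc fingers. Through the KRAB domain they recruit TRIM28, a scaffold for repressors such as the histone methyltransferase SETDB1, and they are known for silencing transposable elements. Their genes multiplied by tandem duplication, so that many near-identical copies lie side by side, and the exons that encode the fingers are known to carry repressive histone H3 lysine 9 methylation while the promoters stay open. Type II topoisomerases pass one DNA duplex through another and so relieve the supercoils that form as Pol II moves.

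In the RefSeq gene table of GRCh38.p14, used only for names and neighbours, 265 of the 1451 protein-coding genes of chromosome 19 have a zinc finger symbol (ZNF, ZFP, ZSCAN, ZIM or ZIK), which is 46.8% of the 566 such genes of all chromosomes. They form long runs with no other protein-coding gene between: 27 genes from ZNF737 to ZNF681, 24 from ZNF565 to ZNF793, 20 from ZNF283 to ZNF180, and 23 from ZNF772 to ZNF256. No gene was assigned to any peak, because no annotation of hg19 was used here, and the windows were not checked against gene positions. Further zinc finger genes of the outer short arm, such as the runs of 11 from ZNF699 to ZNF846 and of 24 from ZNF627 to ZNF791, lie outside the windows, so the rest of the chromosome is not free of this family. Near-identical copies also share short sequences, and no source used here says how reads with more than 1 match were treated.

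The libraries of a condition were pooled into a single list. No value below therefore has a spread between replicates, no test across samples could be made, and a larger list cannot be told apart from a deeper one. Intervals in parentheses are Wilson 95% intervals that cover the counting of peaks only, and peaks are not replicates of a condition. Calling limits differed between lists: the smallest peak spanned 136 bp in the control list, 150 bp in that of 30 min and 159 bp in that of 1 h, and neighbouring peaks stood as close as 1 bp in the first 2 lists but no closer than 38 bp at 1 h. Values called "with like limits" come from lists in which peaks up to 37 bp apart were joined and those under 159 bp left out.

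Pol II peaks were sparse in 4 of the clusters and dense in cluster 5. Control peaks numbered 22.8 per Mb in cluster 1, 28.5 in cluster 2, 72.9 in cluster 3, 65.6 in cluster 4 and 142 in cluster 5, against 114 per Mb in the rest of chromosome 19, where the longest stretch with no Pol II peak (24.3 to 28.3 Mb, about the centromere) was left out of the length. Peaks covered 8.72 bp per kb in cluster 1, 18.6 in cluster 2, 31.4 in cluster 3, 27.6 in cluster 4 and 65.6 in cluster 5. The rest stood at 58.7 bp per kb, so clusters 1 to 4 held less than the rest and cluster 5 held more. In merbarone the order of the clusters by cover stayed that of control: at 1 h cluster 1 had 13.2 bp per kb, cluster 2 had 23.6, cluster 4 had 33.0, cluster 3 had 44.5 and cluster 5 had 86.5, with 76.9 in the rest.

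**Figure D1:**
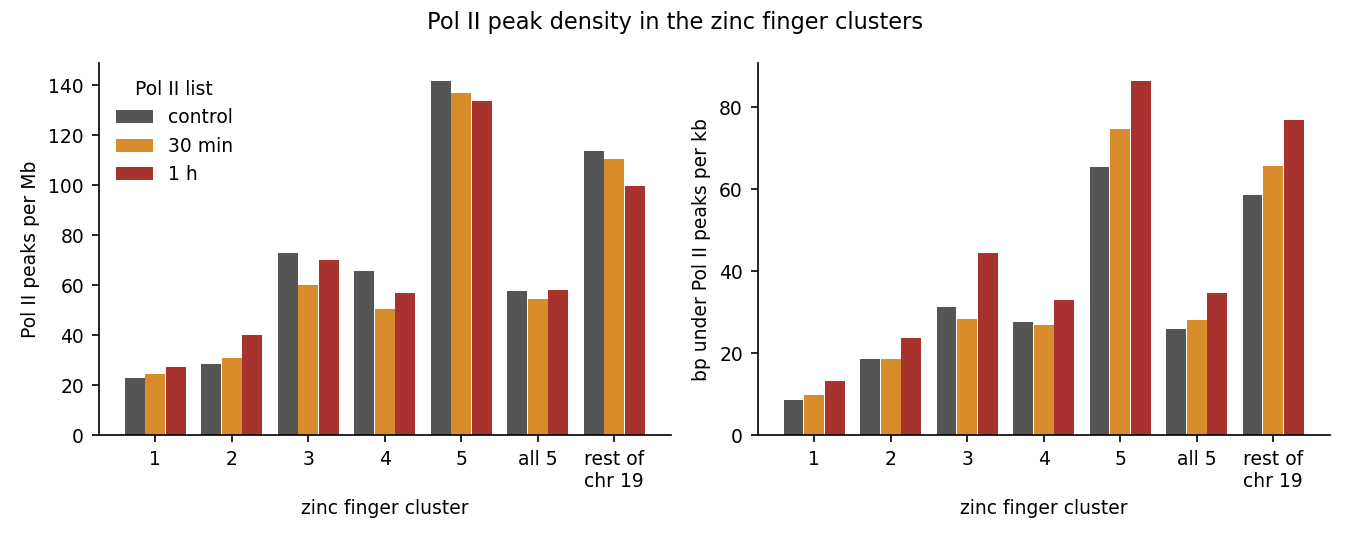
Pol II peaks per Mb (left) and bp under Pol II peaks per kb of sequence (right) in each zinc finger cluster, in the 5 clusters together and in the rest of chromosome 19. Bars are the single pooled list of control, 30 min and 1 h of merbarone, with no error bars because each condition has 1 list; cluster 1 is lowest and cluster 5 highest, at 8.72 and 65.6 bp per kb in control.

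Long stretches of the clusters held no Pol II peak in any list. The longest in cluster 1 ran over 1223 kb, from 22035057 to 23257886. In cluster 5 the longest covered 562 kb, from 57140554 to 57702557, at the inner end of a window whose outer end was the densest. Clusters 2 and 3 had no 100 kb bin without a control peak, whereas 21 of 46 bins in cluster 1 lacked one. Over the 5 clusters 28 of 103 bins (27.2%) were empty in control, close to the 118 of 440 (26.8%) in the rest of the chromosome.

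Neighbouring peaks lay far apart. The median gap from one control peak to the next was 30.3 kb in cluster 2, 4.25 kb in cluster 3, 2.75 kb in cluster 4, 1.66 kb in cluster 1 and 0.565 kb in cluster 5, against 0.354 kb in the rest. All 5 clusters thus stood above the rest, cluster 5 by the least. Over the clusters together the median was 1.39 kb, which is 3.92 times that of the rest, and 10.5 times without cluster 5. Gaps over 10 kb made up 30.6% of all gaps in the clusters and 13.7% in the rest. Over all chromosomes this share was 18.6%, near the 18.2% of cluster 5, and the median gap was 0.398 kb. In cluster 2 the median gap was 30.3 kb in control, 22.6 kb at 30 min and 11.9 kb at 1 h, and its peaks numbered 37, 40 and 52. Clusters 3 and 4 had no such order: in cluster 3 the peaks numbered 51, 42 and 49, and in cluster 4 they numbered 105, 81 and 91.

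Single peaks were about as wide in the clusters as elsewhere. The median control peak was 254.5 bp wide in the clusters and 251 bp in the rest, and at 1 h these were 386 and 381 bp. With like limits the cluster medians were 407.5 bp in control and at 30 min and 386 bp at 1 h, so the wider median at 1 h was seen only without them. Medians differed more among the clusters themselves, from 222 bp in cluster 1 to 717 bp in cluster 2, where 15 of 33 domains, defined next, held exactly 1 peak in each list. With like limits the control medians ran from 345 bp in cluster 5 to 748 bp in cluster 2, with 420 bp in cluster 1. Wide peaks were scarcer over the 5 clusters: 51 of 596 control peaks (8.56%) reached 1 kb, against 635 of 5068 (12.5%) in the rest. At 1 h the shares were 13.9% and 20.5%. Over all chromosomes they were 11.9% in control and 18.7% at 1 h. Cluster 2 alone went the other way in control, with 8 of 37 peaks (21.6%), but at 1 h it stood at 17.3%. At 30 min the share was 9.75% in the clusters and 14.9% in the rest, with 17.5% in cluster 2 and 14.8% in cluster 4.

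Peaks of the 3 Pol II lists no more than 5 kb apart were joined into domains, 244 in the clusters and 973 in the rest. Domains were about as frequent, at 23.7 per Mb in the clusters and 21.8 in the rest, but they were much narrower. The median domain spanned 1119 bp in the clusters and 2357 bp in the rest, a ratio of 0.475 that stayed between 0.416 and 0.621 under every alternative run for it. All clusters lay below the rest, at 909 bp in cluster 3, 927 bp in cluster 1, 1011 bp in cluster 2, 1122 bp in cluster 4 and 1480 bp in cluster 5. Domains under 2 kb made up 66.4% (60.3 to 72.0) of those in the clusters and 46.5% (43.3 to 49.6) in the rest, and those of at least 10 kb 5.74% and 22.3%. Over all chromosomes the median domain spanned 1586 bp, 56.1% were under 2 kb and 14.5% reached 10 kb. The rest of chromosome 19 thus had wider domains than the chromosomes together, and cluster 5, at 1480 bp, lay near their median. A domain held 2.45 control peaks on average in the clusters, 5.21 in the rest and 3.94 over all chromosomes. Of the 244 cluster domains 76 (31.1%) held exactly 1 peak in each list, against 165 of 973 (17.0%) in the rest and 18.1% over all chromosomes.

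**Figure D2:**
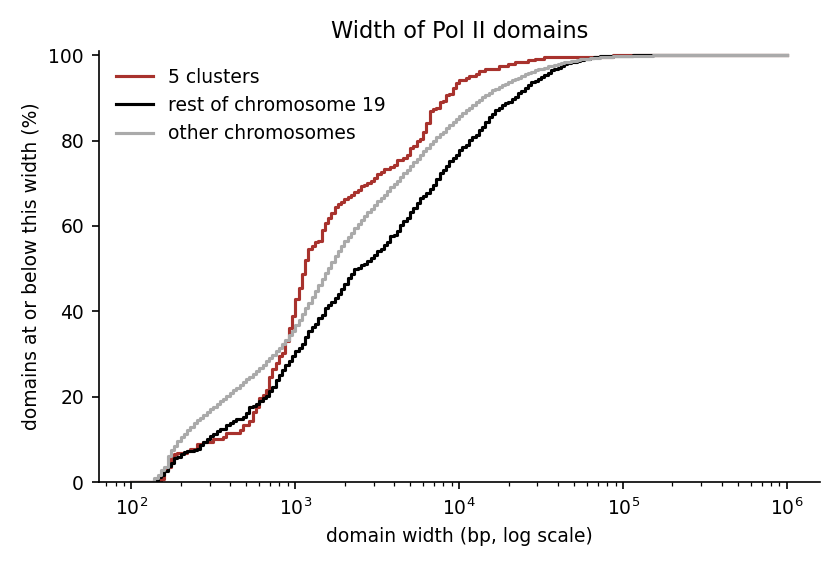
Cumulative share of Pol II domains (y axis, percent) at or below a given width (x axis, bp, log scale), for the 5 zinc finger clusters, the rest of chromosome 19 and the other chromosomes, with the 3 Pol II lists joined at gaps up to 5 kb. Domains under 2 kb make up 66.4% in the clusters and 46.5% in the rest of the chromosome, so the curve of the clusters lies above that of the rest there.

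The comparison of 30 min of merbarone with control asked where Pol II lay shortly after topoisomerase II was blocked. Pol II cover in clusters 1 and 5 was then higher than in control, from 40.1 to 45.0 kb (ratio 1.12) and from 138 to 157 kb (1.14). Most of the difference in cluster 1 lay in a single domain, from 19754064 to 19767961, which went from 3016 to 5967 bp of cover. Cluster 2 was level, at 24.1 and 24.4 kb (1.01). Clusters 4 and 3 had less cover, from 44.2 to 42.9 kb (0.972) and from 21.96 to 19.8 kb (0.902). In the rest of the chromosome the ratio was 1.12, and its 35 bins of 1 Mb with at least 10 kb of control cover ran from 1.01 to 1.28, so clusters 3 and 4 stood below all 35 and cluster 2 above a single one. With like limits the ratio was 0.942 in cluster 3 and 1.01 in cluster 4, the bins ran from 1.03 to 1.36, and both clusters still stood below them, as did cluster 2 at 1.01. The 22 other chromosomes ran from 1.05 to 1.18. Together the clusters reached 1.08. Cluster 5 holds 138 of the 268 kb of control cover, and without it the ratio was 1.01.

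**Figure D3:**
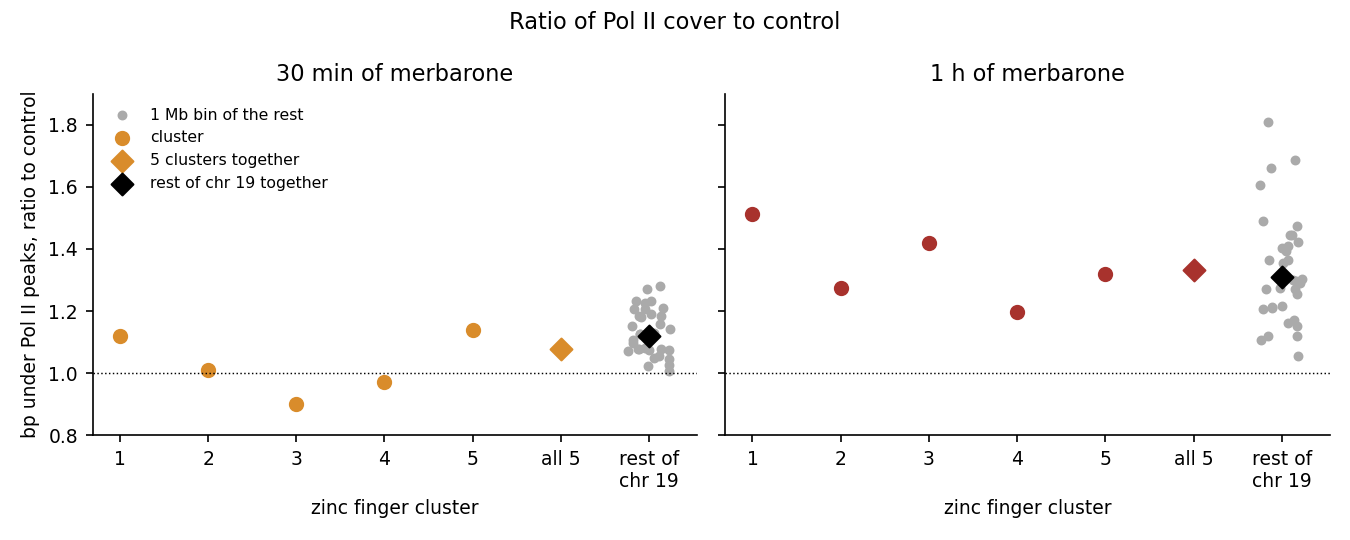
Ratio of bp under Pol II peaks to control (y axis) after 30 min (left) and 1 h (right) of merbarone for each zinc finger cluster, the 5 clusters together, the rest of chromosome 19 together and its 35 bins of 1 Mb (grey points). Points have no error bars because each condition has 1 list; at 30 min clusters 3 and 4 lie at 0.902 and 0.972, below every grey point, and at 1 h all 5 clusters lie within the range of the grey points.

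A smaller share of cluster domains than of others had more Pol II cover at 30 min. Calls were made on domains that spanned 2 kb or more and held a peak in control and at 30 min. Of these, 10 of 74 (13.5%, 7.51 to 23.1) had a share of their length under peaks that was higher by 10 percentage points or more, against 117 of 481 (24.3%, 20.7 to 28.4) in the rest of the chromosome and 24.7% of 8878 over all chromosomes. The intervals of the clusters and the rest overlap, and no test was made. Cluster domains also began lower, with a median control cover of 22.9%, beside 30.5% in the rest and 30.2% over all chromosomes. From a lower start 10 points is a larger fold difference, and no matching by control cover was done. The share in the clusters was the lower under all 10 alternatives run for it. Domains covered less by as much numbered 4 of 74 (5.41%), against 4.78% in the rest and 5.74% over all chromosomes. The median change was -0.057 points in the clusters and 3.72 in the rest. In clusters 1, 3 and 4 it was below 0, at -0.808, -3.30 and -1.38 points.

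Of the 5 domains with the largest excess over control at 30 min, 3 lay in cluster 5, which held 33 of the 74 domains compared. From 58280128 to 58282424, control peaks covered 27.5% of 2297 bp, 30 min peaks 52.4% and 1 h peaks 57.6%. A 13.9 kb domain of cluster 1, from 19754064 to 19767961, went from 9 peaks over 21.7% in control to 20 peaks over 42.9% at 30 min and 11 peaks over 48.3% at 1 h. The domain from 58593960 to 58603163 in cluster 5 was covered over 11.0%, 30.4% and 62.1%. From 58685202 to 58688590 the shares were 5.28%, 21.9% and 17.2%, the only one of these 5 that was lower at 1 h than at 30 min. The fifth, from 44413202 to 44418466 in cluster 3, went from 1 peak over 5.07% to 18.1% and 45.3%.

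The 5 domains furthest below control at 30 min lay in clusters 1 to 4, and the placing of so few domains was not tested. They were chosen for that value, so their 1 h values are a description only. In cluster 4, from 53859685 to 53862132, 4 control peaks covered 29.5%, a single peak covered 7.03% at 30 min, and 2 peaks covered 29.7% at 1 h. In cluster 3, from 44977745 to 44981635, the shares were 35.5%, 19.6% and 41.9%, and from 44663864 to 44670416 they were 22.02%, 12.7% and 25.6%. In cluster 1, from 24239931 to 24247340, they were 28.2%, 14.2% and 29.6%, and in cluster 2, from 37957605 to 37960690, they were 54.2%, 42.4% and 59.9%. Other domains that were lower at 30 min were lower still at 1 h, such as those from 53140134 and from 58930701 given with the 1 h values.

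The comparison of 1 h of merbarone with control asked the same at the later time. Pol II cover was then higher in all 5 clusters. Cluster 1 went from 40.1 kb in control to 60.7 kb (ratio 1.51), cluster 3 from 21.96 to 31.2 kb (1.42), cluster 5 from 138 to 182 kb (1.32), cluster 2 from 24.1 to 30.7 kb (1.27) and cluster 4 from 44.2 to 52.8 kb (1.196). Together they reached 1.33, beside 1.31 in the rest of the chromosome, and the quotient of these ratios lay on both sides of 1 across the alternatives (0.983 with only the parts of the rest within 2 Mb of a cluster, 0.993 without cluster 1). The clusters thus could not be set apart from the rest at 1 h. From 30 min to 1 h the ratio was 1.57 in cluster 3, 1.35 in cluster 1, 1.26 in cluster 2, 1.23 in cluster 4 and 1.16 in cluster 5, against 1.17 in the rest. Clusters 3 and 4 had the lowest ratios to control at 30 min, and cluster 4 was not below control then with like limits.

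Domains with more Pol II cover at 1 h were about as common as elsewhere. Of 79 domains of at least 2 kb, 38 (48.1%, 37.4 to 58.9) were higher by 10 points or more, against 236 of 485 (48.7%, 44.2 to 53.1) in the rest and 51.3% over all chromosomes. A single domain was covered less by as much, against 13 of 485 in the rest (2.68%) and 3.71% over all chromosomes. The median change was 9.18 points in the clusters and 9.60 in the rest. Median control cover of the domains compared was 22.2% in the clusters, 30.4% in the rest and 30.1% over all chromosomes. Among domains of at least 5 kb, 37.7% in the clusters and 47.0% in the rest were higher by 10 points or more. Ratios differed by width class. Domains of 2 to 10 kb, 68 in number, went from 77.8 kb of cover to 123 kb, a ratio of 1.59, and 57 of the 68 had more cover than in control. The 304 such domains of the rest had a ratio of 1.34, and 241 of them had more cover. On the other chromosomes the ratio was 1.39, and 4893 of 6184 had more cover. In this class the ratio was 1.93 in cluster 2 (7 domains), 1.70 in cluster 5 (27), 1.60 in cluster 3 (11), 1.48 in cluster 4 (12) and 1.33 in cluster 1 (11). Thus 4 of the 5 clusters stood above the rest, on few domains each. Cover of this class in cluster 2 went from 5.92 to 11.4 kb. A single domain of it, from 37853845 to 37862573, went from 1977 to 4707 bp. With like limits in the same domains the ratios were 1.79 in the clusters and 1.42 in the rest. A domain joined from the 3 lists grows as peaks are added, so width is not independent of this ratio. In the other 3 width classes the clusters were slightly below the rest. The ratio was 1.18 in the clusters and 1.22 in the rest for domains under 2 kb, 1.32 and 1.34 for those of 10 to 50 kb, and 1.19 and 1.22 for those of 50 kb or more, of which the clusters hold 1.

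**Figure D4:**
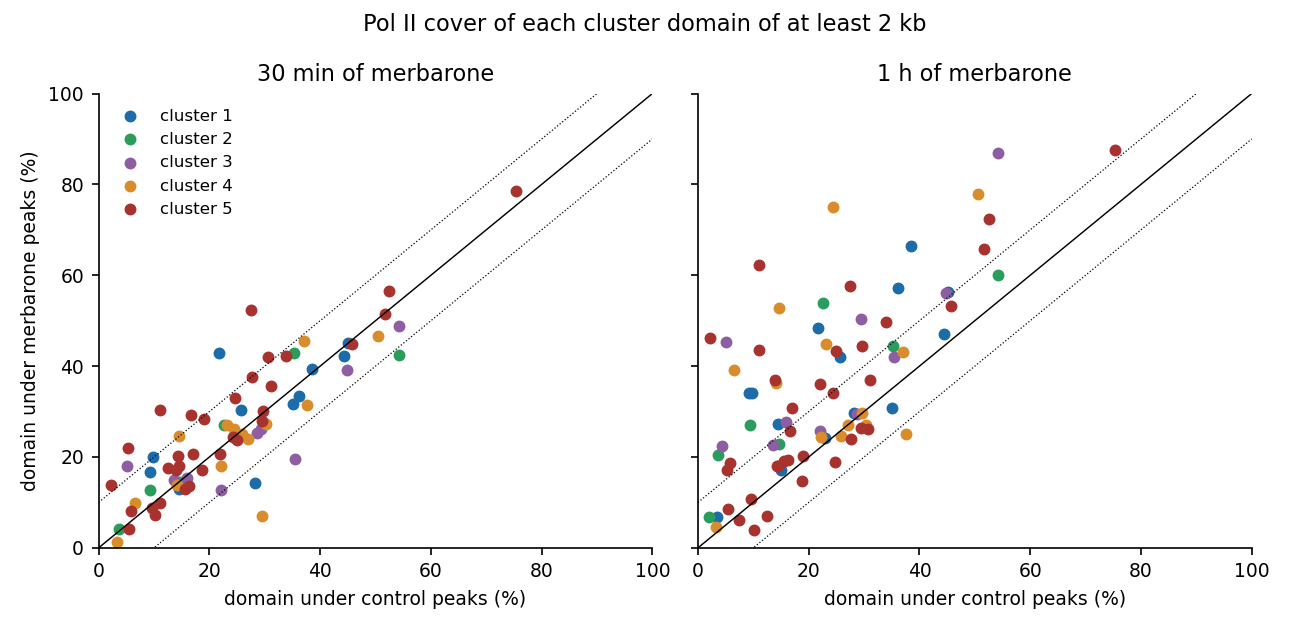
Share of each domain under Pol II peaks in control (x axis, percent) and after merbarone (y axis, percent; 30 min left, 1 h right), for cluster domains that span 2 kb or more and hold a peak in each of the lists plotted, coloured by cluster. The solid line marks equal cover and the dotted lines a difference of 10 points; at 30 min 10 of 74 domains lie on or above the upper dotted line, and at 1 h 38 of 79.

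The 5 largest differences at 1 h began from at most 24.4% cover. The domain in cluster 5 from 58593960 to 58603163, also among the largest at 30 min, stood 51.2 points above control. In cluster 4, from 52828596 to 52831572, cover stood at 24.4% in control, 26.2% at 30 min and 74.97% at 1 h, so nearly all of the difference arose after 30 min. From 58482351 to 58490349 in cluster 5, 1 control peak of 176 bp (2.20% of 7999 bp) stood beside 5 peaks over 13.9% at 30 min and 9 peaks over 46.1% at 1 h. The domain in cluster 3 from 44413202 to 44418466 stood 40.2 points above control, and that in cluster 4 from 53103880 to 53112981 went from 14.6% to 24.7% and 52.9%. Cover was lower in few places. From 53140134 to 53146358 in cluster 4 it stood at 37.6%, 31.5% and 25.1%. From 58930701 to 58942944 in cluster 5 it was 10.2%, 7.30% and 4.03%. In 3 other domains of cluster 5 it was higher at 30 min and lower at 1 h than in control: 24.7%, 33.0% and 18.98% from 57983483 to 57989273, 12.5%, 17.5% and 6.94% from 58132158 to 58138108, and 30.7%, 42.0% and 26.2% from 58693752 to 58698623.

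Most narrow domains of the clusters held a peak at every time. Of 162 domains under 2 kb, 119 (73.5%, 66.2 to 79.7) held a peak in all 3 lists, against 271 of 452 (60.0%, 55.4 to 64.4) in the rest of the chromosome. Over all chromosomes the share was 54.9%. Narrow domains with no control peak numbered 25 (15.4%, 10.7 to 21.8) and 104 (23.0%, 19.4 to 27.1), beside 27.8% over all chromosomes. The narrow domains of the clusters were themselves a little wider, with a median of 871 bp, beside 743 bp in the rest, and no matching by width was done. The share in all 3 lists ran from 69.4% in clusters 1 and 5 to 81.2% in cluster 3. At 75 cluster sites with exactly 1 overlapping peak in each list, the control peak had a median width of 672 bp, the 30 min peak 706 bp and the 1 h peak 756 bp. The same site was wider than in control at 45 of 75 at 30 min and 52 of 75 at 1 h. In the rest these were 87 and 108 of 159 sites, with medians of 689, 707 and 766 bp. Over all chromosomes 53.5% of such sites were wider at 30 min and 70.2% at 1 h, beside 60% and 69.3% in the clusters. At 33 of the 75 sites the 1 h peak reached past both ends of the control peak, at 30 it passed 1 end only, and at 12 neither. The 1 h peak passed both ends at 69 of 159 sites in the rest (43.4%, beside 44% in the clusters) and at 42.8% over all chromosomes. In cluster 3, 3 of 10 sites were wider at 30 min and 5 of 10 at 1 h.

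Peak by peak, the lists overlapped about as elsewhere. At 30 min, 176 of 564 cluster peaks (31.2%, 27.5 to 35.1) touched no control peak, against 33.6% (32.3 to 34.9) in the rest and 34.1% over all chromosomes. At 1 h these were 242 of 598 (40.5%, 36.6 to 44.5), 39.9% and 44.1%. With peaks of at least 300 bp only, the clusters stood below the rest at both times, at 20.7% against 26.5% and 36.4% against 41.7%. Conversely, 174 of the 596 control peaks (29.2%, 25.7 to 33.0) had no partner at 30 min, against 24.6% (23.4 to 25.8) in the rest and 26.1% over all chromosomes. At 1 h 145 (24.3%, 21.1 to 27.9) had none, against 20.6% (19.5 to 21.7) and 22.3%. Such peaks were narrow, with medians of 161 bp for control peaks with no partner at 30 min and 185 bp for 30 min peaks with no control partner. Clusters differed here too: at 1 h 4 of 51 control peaks had no partner in cluster 3 (7.84%) and 35 of 105 in cluster 4 (33.3%). Of the control peaks with no 30 min partner, 25 of 174 (14.4%) lay over 10 kb from any 30 min peak, against 54 of 1247 (4.33%) in the rest. For those with no 1 h partner the shares were close, at 9 of 145 (6.21%) and 53 of 1043 (5.08%). Gaps over 10 kb between 30 min peaks were also more common in the clusters, at 31.5% against 13.6%. This distance was not computed for the other chromosomes.

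The widest peaks without a partner marked single sites. In cluster 2 a control peak of 366 bp from 37997205 to 37997570 stood over 36 kb from the nearest peak at both times, 36614 bp at 30 min and 36514 bp at 1 h. In cluster 1 a control peak of 339 bp from 19818539 to 19818877 lay 24713 bp from any 30 min peak, while a 1 h peak of 571 bp overlapped it, from 19818147 to 19818717. The widest 1 h peaks with no control partner spanned 1133 bp in cluster 4 from 53105349 to 53106481, 1060 bp in cluster 3 from 44413202 to 44414261 and 1055 bp in cluster 5 from 58483082 to 58484136. Control peaks came no closer to them than 154, 3657 and 2520 bp, and all 3 fell in domains named above for their cover at 1 h. At 30 min the widest without a control partner were smaller, 632 bp in cluster 5 from 58893247 to 58893878 and 547 bp in cluster 1 from 19766171 to 19766717.

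Wide Pol II peaks were found at the outer end of cluster 5 and were similar in all lists. The widest control peak spanned 6892 bp from 59060183 to 59067074, of which 30 min peaks covered 6859 bp and 1 h peaks 6602 bp, each in 3 pieces. Close by, a 6893 bp peak at 30 min from 59069434 to 59076326 took in 3 pieces of control cover that add to 6700 bp, and a 7223 bp peak at 1 h from 59069094 to 59076316 took in 4 pieces that add to 6841 bp. Both sites belong to a 32.7 kb stretch from 59054963 to 59087666. The widest domain of the clusters, 83.2 kb from 58838099 to 58921292, had 31.1% of its length under control peaks, 35.7% under 30 min peaks and 36.9% under 1 h peaks. In the other clusters the widest control peaks were short: 2192 bp in cluster 4 (52692318 to 52694509), 1404 bp in cluster 2 (37063687 to 37065090), 1266 bp in cluster 1 (19773859 to 19775124) and 1192 bp in cluster 3 (44616918 to 44618109). At 1 h that site of cluster 3 was part of a 3104 bp peak from 44615006 to 44618109, over 2444 bp of control cover in 4 pieces. The widest domain of cluster 3, 7125 bp from 44680366 to 44687490, was covered over 54.3%, 48.8% and 86.9%. That of cluster 2, 8.73 kb from 37853845 to 37862573, was covered over 22.6%, 27.1% and 53.9%. The widest domains of clusters 1 and 4, from 24252723 to 24274489 and from 52707002 to 52720045, were thinly covered at all times, at 15.0%, 13.4% and 17.1% and at 3.28%, 1.23% and 4.68%.

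TOP2A, mapped without drug, was called at 3 sites in the clusters, and all 3 lay on Pol II peaks present in every list. Most TOP2A peaks elsewhere also lay on control Pol II peaks, 17 of 25 (68%) in the rest of the chromosome and 76.4% over all chromosomes. The interval for 3 of 3, 43.9 to 100, includes both shares. In cluster 2 a TOP2A peak of 73 bp, from 37861830 to 37861902, lay in a control Pol II peak of 1050 bp, a 30 min peak of 1041 bp and a 1 h peak of 1159 bp, near the end of the 8.73 kb domain named above. In cluster 5 a TOP2A peak of 86 bp, from 58740133 to 58740218, lay in a control Pol II peak of 969 bp, with 887 bp for its 30 min counterpart and 777 bp for that of 1 h. The other, 121 bp from 58790017 to 58790137, lay in a Pol II peak of 1526, 1687 and 1969 bp. The Pol II peak was thus narrower with time at the second site and wider with time at the third.

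Clusters 1, 3 and 4 held no TOP2A peak. The limit that a count of 0 allows is 2.86% of the 105 control Pol II peaks in cluster 1 and of the 105 in cluster 4, and 5.88% of the 51 in cluster 3. Over the clusters there were 5.03 TOP2A peaks per 1000 control Pol II peaks and in the rest of the chromosome 4.93. The share of control Pol II peaks that held TOP2A was 0.503% (0.171 to 1.47) in the clusters and 0.335% (0.210 to 0.537) in the rest, against 1.35% over all chromosomes. The interval of the rest lay below the value of all chromosomes, whereas that of the clusters included it. Per Mb of sequence TOP2A peaks numbered 0.291 in the clusters and 0.561 in the rest. Per Mb of control Pol II cover, those on Pol II numbered 11.2 and 6.49, against 32.8 over all chromosomes, so the order depended on the denominator. With 3 TOP2A peaks, no difference between the clusters and the rest was detectable.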

How the data were processed

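ChIP-seq libraries of hTERT RPE-1 cells, fixed with 1% formaldehyde for 10 min, were analysed as the 4 deposited peak lists. Per the submitters' processing notes, the authors used Bowtie 1.2.0, MACS2 and deepTools 2.4.1 with hg19; no source used here gives the peak threshold, the background library or how replicates were combined. Values in the deposited files are starts and ends in bp, with no score. Depth is unknown, and the 3 IgG libraries were not analysed here.

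Positions were taken as counted from 0 with the end excluded and are printed counted from 1. An overlap of 1 bp or more made peaks shared. Regions named are, per cluster, the widest peaks and domain, the widest peaks without partner, all TOP2A peaks, and the 5 domains of at least 2 kb with the largest difference in either direction per time; some widest peaks are not printed. The members and comparisons were chosen with earlier results of these data known. The alternatives for the 30 min domain share and the median domain width, and values with like limits per cluster and width class, were added after seeing the data. With 1 list per condition no test was made. The scripts' 4 interval functions were checked on simulated peaks against bedtools 2.31.1, with equal output. Python 3.11.15, numpy 2.4.6, pandas 2.3.3, scipy 1.17.1 and matplotlib 3.10.9 were used.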

Additional observations from a re-analysis of the deposited data

How the results depend on the processing

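Of 122 values recomputed under alternatives, 94 stayed near the value reported (within 1 SD of the 5 clusters for cover ratios, within the Wilson interval for shares, within 1.5 times for medians and TOP2A counts). Ratios and quotients among them also stayed on the same side of 1. For shares and TOP2A counts the order against the rest was not checked, and it changed in some. TOP2A per 1000 was 6.94 with like limits (7.29 in the rest). Without cluster 1, the 1 h share without partner was 39.1% (39.9% in the rest). No paired analysis was possible because each condition has 1 pooled list, and no replicate could be left out; clusters were left out instead. The cause of the changes below was not tested. With peaks of at least 300 bp only, the 1 h ratio in the clusters was 1.47 (also 1.47 in the rest). The quotient of median control widths was then 0.989 and that of median gaps 11.8. The shares of peaks with no control partner were 20.7% at 30 min (26.5% in the rest) and 36.4% at 1 h (41.7%). TOP2A stood at 11.6 per 1000 (11.7), and 61.9% of domains (68.5%) were covered more at 1 h. With peaks within 1 kb joined, the width quotient was 0.829 and the gap quotient 2.28. The shares without partner were 22.2% and 25.9% (23.0% and 28.0% in the rest), and TOP2A stood at 9.62 per 1000 (14.4). With like limits the gap quotient was 6.26 and the 1 h share without partner 46.2% (46.0% in the rest). Asking for 50% overlap gave shares of 42.2% and 53.8% (45.4% and 54.9% in the rest), and a partner within 1 kb 11.7% and 18.7% (11.3% and 17.3%). With the rest limited to within 2 Mb of a cluster, the width quotient was 0.983 and the 1 h quotient of cover ratios 0.983. Per Mb of control Pol II cover, TOP2A on Pol II was 11.2 (6.49 in the rest). With domains joined across 2 kb, 61.2% were covered more at 1 h (57.0% in the rest) and 25.8% at 30 min (34.6% in the rest). Leaving out 1 cluster at a time, the width quotient ran from 0.968 (without cluster 2) to 1.12, and was below 1 also without cluster 3 (0.988) or 4 (0.996). The gap quotient ran from 2.77 to 10.5, the latter without cluster 5, and the 1 h quotient of cover ratios from 0.993 (without cluster 1) to 1.04. The 30 min quotient stayed below 1 throughout, from 0.904 without cluster 5 to 0.980 without cluster 4.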
